A study of Mus musculus with 2 samples.

Results

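Carriers of the Slc2a, Slc5a, Slc16a, Slc22a and Slco families were examined in a stem cell line from a mouse glioblastoma, with and without knockdown of Stat5b. Members were taken by gene symbol, as any symbol made of one of these family names followed by a number. The rule found 81 symbols on the array, of which 79 name carriers, among 26891 genes with a probe. The families held 12 (Slc2a), 13 (Slc5a), 14 (Slc16a), 25 (Slc22a) and 15 (Slco) carriers, read by 138 probes. The other 2 symbols, Slc2a4rg-ps and Slc22a13b-ps, name pseudogenes and were set apart.

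Both samples came from 1 line, grown as neurospheres in serum-free medium with EGF and bFGF after derivation from a Sleeping Beauty (SB) transposon tumour. The control cells had received a lentivirus with a non-target short hairpin RNA. The knockdown cells had received a lentivirus with a hairpin against Stat5b, a transcription factor switched on by cytokine and growth factor receptors, and both populations were stably transduced. There was 1 array of each, so no difference could be set against the spread between cultures and no p-value is given. The design asked how lowering Stat5b changes gene expression in these cells.

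Solute carriers set what a cell can take up and release. Slc2a proteins let glucose and related sugars and polyols down their gradient, whereas Slc5a proteins pull glucose, inositol, vitamins, choline or iodide in with sodium. Slc16a proteins carry lactate, pyruvate, ketone bodies, thyroid hormone and other acids, some of them only when paired with basigin or embigin at the cell surface. Slc22a and Slco proteins carry organic cations and anions, among them carnitine, urate, prostaglandins, bile acids and drugs, and many are best known from liver, kidney and the barriers of the brain. Glioma cells are known for strong glucose uptake and lactate release.

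Values are the processed signals of the scanner software, and a difference is log2 signal on the knockdown array minus log2 signal on the control array after scaling. Probes that the scanner software flagged as well above background are called detected, and a gene's difference is the mean over its probes detected on both arrays. The ± gives the measurement error that the scanner software reported, carried through to the difference, and it covers no variation between cultures. Different probes of 1 gene had an SD of 0.31 in their differences, which is the wider guide to precision and the SD used below. It too comes from these 2 arrays and covers no variation between cultures. Over the 10 carriers with several measured probes alone it was 0.38. Differences of 2-fold or more were counted, which describes the size of a difference on these 2 arrays. Signals of different probes cannot be compared with each other.

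The targeted gene was lower on the knockdown array, with 1991 and 498 for the brighter Stat5b probe, or 25.0% of control. The cells gave high signals for the neural stem cell filament nestin (Nes, with a control signal of 18174 and a knockdown signal of 15868) and for vimentin (Vim, 96090 and 88538). Sox2, another stem cell marker, was detected in neither sample, and Olig2 in the knockdown alone. On the brightest probe of each, Prom1 had signals of 97.4 and 70.8 and Msi1 of 199 and 225. Of 6 microglia markers 4 and of 6 brain endothelium markers 3 were detected on neither array. The summed signal of the brightest probes was 605 and 938 for the microglia list, 2506 and 2657 for the endothelium list, 162 and 171 for the choroid plexus list, 5118 and 5750 for the neuron list and 226 and 359 for the astrocyte list, control array first. These sums are led by the brightest probes. In the microglia list that probe was of Csf1r, with 556 and 807. The probes of Csf1r disagreed in sign, at -0.10 and 0.54 (mean 0.22 ± 0.14). Single markers differed more, with Tmem119 of the microglia list at 1.80 ± 0.24 and Otx2 of the choroid plexus list at -1.11 ± 0.24. S100b (astrocyte list) and Ttr (choroid plexus list) were detected in the knockdown alone, with bounds of at least 10.1-fold and 4.86-fold. Other markers of the lists did not all follow. Gfap was detected in the control alone (at least 1.53-fold), and Aldh1l1 (-0.08 ± 0.23) and Slc1a2 (0.04 ± 0.25) were near 0. Gja1 was at 0.98 ± 0.26 and Aqp4 at 0.94 ± 0.21, with Aqp4 probes at -0.02 and 1.90. Of the 4 measured astrocyte markers 3 were above 0, and Slc1a3 was detected on neither array. Cdh5 of the endothelium list was at -0.75 ± 0.23, while 2 of the 3 measured there were above 0. The part of such cells or states in the results was not tested.

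Of the 79 carriers, 42 (53.2%) were measured on both arrays, against 60.8% of all genes with a probe. The measured share differed between families, with 12 of 14 in Slc16a, 9 of 12 in Slc2a, 12 of 25 in Slc22a, 6 of 15 in Slco and 3 of 13 in Slc5a. Another 3 carriers were detected on 1 array and 34 on neither. Among the 42, 3 were higher in the knockdown by 2-fold or more, where 3.66% of all measured genes were, and 0 were at least 2-fold lower, where 2.41% of genes were. The median difference of the 42 was 0.09, against 0.01 over all genes. Above 0 were 24 of the 42 (57.1%), against 51.1% of all genes. At 1.5-fold, 6 carriers were higher, where 11.0% of genes were, and 1 was lower, where 8.44% of genes were. The carriers past 1.5-fold in either direction were thus 7 of 42 (16.7%), close to the 19.5% of all genes. Of the 42, 22 (52.4%) differed by less than the SD over probes of 1 gene, near the 56.7% of all genes that did.

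**Figure D1:**
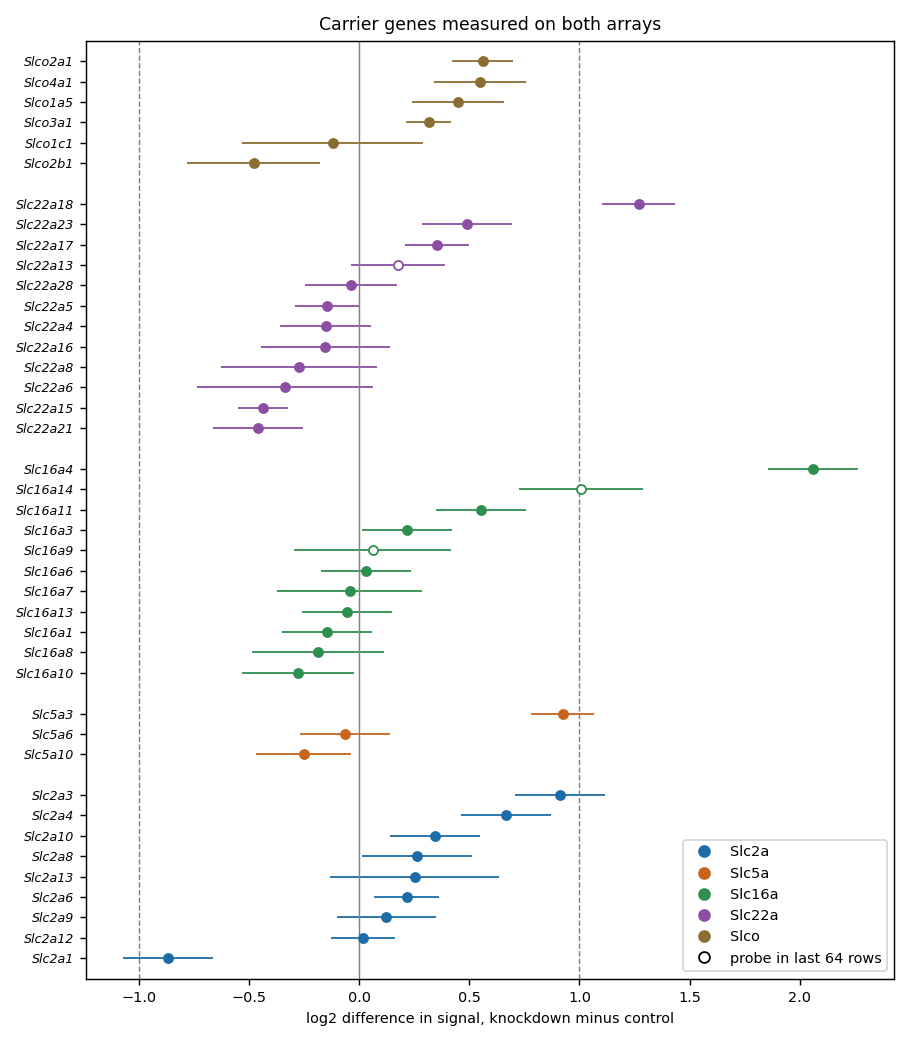
Log2 difference in signal, knockdown minus control (x axis), for 41 carriers measured on both arrays, grouped and coloured by family. Bars are the scanner software's error, dashed lines mark 2-fold, and open circles mark genes read only by probes in the last 64 rows of the array. Slc16a4 at 2.06 and Slc22a18 at 1.27 lie right of the upper line with Slc16a14 on it, and Slc2a1 at -0.87 is the lowest.

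Among the Slc16a carriers the largest difference was that of Slc16a4, a family member whose substrates are poorly defined. Its probe gave 322 in the control and 1343 in the knockdown. That is a log2 difference of 2.06 ± 0.20, or 4.16-fold higher with the hairpin against Stat5b, at percentile 99.7 of all measured genes. It rests on 1 probe, whose first 30 of 60 bases are shown so that it can be placed on a transcript.
Slc16a4 probe: ggttaactagatctctggaatctgaataaa

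Slc16a14, another member with little known of its substrates, was the second Slc16a gene at 2-fold, with dim signals of 22.4 and 45.0 (1.01 ± 0.28). Its probe lay in the last 64 rows of the array, as did 14 carrier probes in all, and a further probe was detected on neither array (2.83 and 3.07). The difference fell short of 2-fold with median scaling (1.0), quantile normalization (0.99), normexp background correction (0.26) and no filter on dim probes (0.56). Both probes are shown because only the first was detected.
Slc16a14 measured probe: tcttttttaagagcctgttatggtggcaca
Slc16a14 dim probe: tgctttacatggtagggatactctttttgc

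The lactate carriers of the Slc16a family were near 0. Slc16a1, the widespread carrier for lactate and pyruvate, had signals of 7779 and 7032 (-0.15 ± 0.20). Slc16a3, the carrier used for lactate release by glycolytic cells, had 1738 and 2022 (0.22 ± 0.20). Slc16a7, a carrier of high affinity, had 22.1 and 21.4 on its only measured probe of 6 (-0.04 ± 0.33), and Slc16a8 had 29.2 and 25.7 (-0.19 ± 0.30). All 4 differed by less than the SD over probes of 1 gene. Their partner proteins were close to 0 as well, with basigin (Bsg) at 0.23 ± 0.20 and embigin (Emb) at 0.12 ± 0.20. The lactate dehydrogenase subunits Ldha and Ldhb were at 0.13 ± 0.14 and 0.36 ± 0.14.

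Among carriers that take thyroid hormone, Slc16a10, which carries aromatic amino acids and thyroid hormone, was at 43.2 and 35.7 (-0.28 ± 0.25), and Slco1c1, the thyroxine carrier of the brain's barriers, at 16.4 and 15.1 (-0.12 ± 0.41). Neither reached 2-fold. Crym, a protein that binds thyroid hormone in the cytosol, was lower (37889 and 22670, -0.74 ± 0.20). Elsewhere in the Slc16a family, Slc16a11 was at 4511 and 6629 (0.55 ± 0.20), while Slc16a6 (5235 and 5348, 0.03 ± 0.20), Slc16a9 (21.5 and 22.4, 0.06 ± 0.36) and Slc16a13 (1104 and 1063, -0.06 ± 0.20) were near 0. Slc16a11 and Slc16a13 lie within 3 steps of each other in the gene order and did not share a difference. The family's median was 0.05.

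The glucose carriers of the Slc2a family were split. Slc2a1, the basal glucose carrier of most dividing cells and of the blood-brain barrier, was lower in the knockdown, at 10973 and 6025 (-0.87 ± 0.20), the lowest of all measured carriers. Slc2a3, the high-affinity glucose carrier typical of neurons, was higher, at 751 and 1416 (0.91 ± 0.20). Slc2a4, the carrier that insulin brings to the surface of muscle and fat cells, was also higher, at 422 and 670 (0.67 ± 0.20). Another Slc2a4 probe was detected in the knockdown alone, with signals of 6.13 and 17.3. These 3 genes were past 1.5-fold and none was past 2-fold. A further Slc2a3 probe was detected on neither array (5.78 and 6.98), and with no filter on dim probes the mean for Slc2a3 was 0.59. The probes of the opposed pair are shown, the dim Slc2a3 probe included.
Slc2a1 probe: acccacttgtaaatacaccaacaaactcct
Slc2a3 measured probe: gtgcttacacatttcagaccctttaggcaa
Slc2a3 dim probe: cgttttcatgacgatttcgctgttactaaa

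The other measured Slc2a genes lay between 0.02 and 0.34. Slc2a10 was at 0.34 ± 0.21, Slc2a8 at 0.26 ± 0.25, Slc2a13, which brings in myo-inositol with protons, at 0.25 ± 0.38, Slc2a6 at 0.22 ± 0.15 and the urate carrier Slc2a9 at 0.12 ± 0.23. Slc2a12 was at 0.02 ± 0.14, with probes at -0.27 and 0.30. Signals were dim for Slc2a13 (16.9 and 20.1), Slc2a8 (39.1 and 47.0) and Slc2a9 (57.2 and 62.4). Slc2a13 and Slc2a9 also had probes detected on neither array. Slc2a8, Slc2a13, Slc2a6, Slc2a9 and Slc2a12 each differed by less than the SD over probes of 1 gene. In sign, 8 of 9 measured members were above 0, against 51.1% of all measured genes, with Slc2a1 the exception. The family's median was 0.25. The fructose carrier Slc2a5, the liver glucose carrier Slc2a2 and Slc2a7 were detected on neither array.

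Regulators of carrier traffic and carrier partners lay on both sides of 0. Of the 13 genes, 12 were measured, 8 were above 0 and 0 were past 2-fold in either direction, with a median of 0.24. Of all measured genes, 51.1% were above 0, 3.66% past 2-fold higher and 2.41% past 2-fold lower. Txnip, which promotes removal of Slc2a1 from the surface, was at 0.53 ± 0.14. The probes of its relative Arrdc4 disagreed in sign, at -0.16 and 0.67 (mean 0.25 ± 0.14). Rab10, a GTPase for delivery of Slc2a4 vesicles, was past 1.5-fold at 0.60 ± 0.20, read by 1 probe in the last 64 rows. The Rab GTPase-activating proteins Tbc1d4 and Tbc1d1 were at 0.41 ± 0.12 and -0.43 ± 0.12, with Tbc1d1 probes ranging from -0.82 to -0.02. Aspscr1, a tether of those vesicles, was at -0.11 ± 0.20, and stomatin (Stom), a membrane protein that binds Slc2a1, at 0.36 ± 0.20, again read in those last rows. The scaffolds Slc9a3r1 and Slc9a3r2 were at 0.39 ± 0.14 and -0.27 ± 0.14, and neuroplastin (Nptn) was at -0.25 ± 0.11, while the scaffold Pdzk1 was not detected.

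A list of enzymes, binding proteins and further carriers that handle the same substrates was mixed too. Of its 22 genes, 19 were measured, with 11 above 0, 1 past 2-fold higher, 0 past 2-fold lower and a median of 0.06. Over all measured genes, 51.1% were above 0, 3.66% were past 2-fold higher and 2.41% past 2-fold lower. For glucose, hexokinase 1 (Hk1) was at -0.02 ± 0.13 and hexokinase 2 (Hk2) at -0.48 ± 0.20. For polyols and fructose, the aldose reductase Akr1b3 was at -0.45 ± 0.14, sorbitol dehydrogenase (Sord) at -0.44 ± 0.14 and ketohexokinase (Khk) at 0.93 ± 0.14. The gene past 2-fold was no enzyme but Slc51a, a subunit of the bile acid exporter (1.24 ± 0.16), whose partner subunit Slc51b was not detected. For ketone bodies, Oxct1 was at 0.05 ± 0.14 and Bdh1 at 0.10 ± 0.14. The pyruvate dehydrogenase kinases Pdk1 and Pdk4 were at 0.06 ± 0.10 and -0.49 ± 0.21. For thyroid hormone, the deiodinase Dio2 was detected in the control alone (a bound of at least 1.12-fold) and Dio3 in neither sample.

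**Figure D2:**
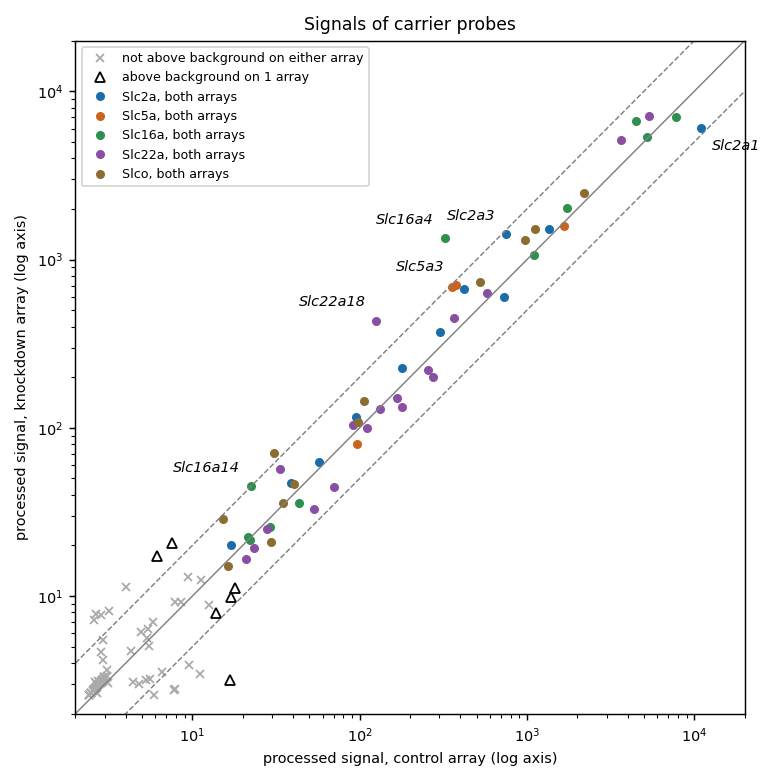
Processed signal of 136 carrier probes on the control array (x axis) and the knockdown array (y axis), both on log axes. The solid line marks equal signals, dashed lines mark 2-fold, colours give the family, triangles are probes detected on 1 array and crosses on neither. Slc16a4 (322 and 1343) and the brighter Slc22a18 probe (126 and 432) stand above the upper line, and the probe of Slc2a1 (10973 and 6025) lies toward the lower one.

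Of the sodium-coupled Slc5a carriers, 3 of 13 were measured. Slc5a3, the sodium and myo-inositol carrier that cells raise under osmotic stress, was higher on the knockdown array by both of its probes. Those probes had signals of 375 and 706 and of 359 and 686, which gave 0.91 and 0.94 and a mean of 0.92 ± 0.14. Among the 10 carriers with several measured probes, these lay closest together. They share no run of 20 bases.
Slc5a3 first probe: gaagagactccacaagttaaagtgatccta
Slc5a3 second probe: ggcttcagtttcaaagaaaatagaatttga

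The remaining Slc5a genes differed little. Slc5a6, the carrier of biotin and pantothenate, was at 1663 and 1594 (-0.06 ± 0.20), and Slc5a10, a carrier of mannose and fructose, at 95.9 and 80.7 (-0.25 ± 0.22). The choline carrier Slc5a7 was detected in the knockdown alone, with signals of 7.55 and 20.8. Against the lowest detected control signal its bound was at least 1.72-fold, short of 2-fold. The glucose carriers of gut and kidney, Slc5a1 and Slc5a2, and the iodide carrier Slc5a5 were among the 9 members detected on neither array. Outside the family, the inositol synthase Isyna1 was at 0.38 ± 0.21. The probes of the inositol phosphatase Impa1 disagreed in sign, at -1.22 and 0.18 (mean -0.52 ± 0.15), so no direction is given for it.

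In the Slc22a family 12 of 25 genes were measured, with a median of -0.15. Slc22a18, an imprinted gene beside the growth inhibitor Cdkn1c, was the family's only member past 2-fold. Its brighter probe had signals of 126 and 432 (1.78 ± 0.21) and its dimmer probe 33.5 and 56.7 (0.76 ± 0.26), which gave a mean of 1.27 ± 0.16, or 2.41-fold. Both probes were higher on the knockdown array, and the brighter one alone passed 2-fold. With normexp the mean was 0.83, short of 2-fold. They share no run of 20 bases.
Slc22a18 brighter probe: ggtcctttggaagaagccattgtcccagaa
Slc22a18 dimmer probe: acctatgtgctggcagccctggagctaacg

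The 4 Slc22a carriers of carnitine or ergothioneine, grouped after the values were seen, had gene values from -0.46 to -0.14. Slc22a4, the ergothioneine carrier, was at 167 and 151 (-0.15 ± 0.21), and the carnitine carrier Slc22a16 at 27.7 and 25.0 (-0.15 ± 0.29). Slc22a21, a mouse carnitine carrier, was at 276 and 201 (-0.46 ± 0.21). Slc22a5, the main carnitine carrier of the plasma membrane, was at -0.14 ± 0.15, the mean of a probe with 178 and 133 (-0.42) and a probe with 576 and 631 (0.13). By its transcript accession the second of those probes belongs to Slc22a21, and with names by accession Slc22a5 was at -0.42. Under that naming Slc22a21 takes in the probe at 0.13 beside its own at -0.46. The probe of Slc22a21 and the first probe of Slc22a5 share a run of 33 identical bases, and 43 of 58 aligned bases in all. Whether either probe also reads the other transcript was not tested. The shared stretch begins at base 26 of the Slc22a21 probe and base 28 of the Slc22a5 probe. Its first 30 bases are in capitals, followed by the start of the probe with 2 names.
Shared by Slc22a21 and Slc22a5: TGAGTCTCTTGAACAAGCAGGACTTGGAAG
Slc22a5 by symbol, Slc22a21 by accession: tgttcagtgtgattgtcttctcttctgatt

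Slc22a5, Slc22a21 and Slc22a4 form a run in the gene order, each within 3 steps of the next. The proteins that use or move carnitine inside the cell lay between -0.08 and 0.59. Cpt1a was at 0.20 ± 0.20, Crat at 0.15 ± 0.15 and the mitochondrial carnitine carrier Slc25a20 at 0.59 ± 0.20. The probes of Crot disagreed in sign, at -0.38 and 0.22 (mean -0.08 ± 0.20). None of the 4 was past 2-fold.

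Apart from Slc22a18, the measured Slc22a genes above 0 were Slc22a17, Slc22a23 and Slc22a13. Slc22a17, a receptor for the iron-carrying protein lipocalin 2, was at 365 and 447 and at 5349 and 7139 (mean 0.35 ± 0.14). Slc22a23 was at 3672 and 5158 (0.49 ± 0.20). Slc22a15 was lower by each of its 4 measured probes, from -0.70 to -0.17 (mean -0.44 ± 0.11), and a further probe, detected in the control alone, had 13.8 and 7.97. The kidney anion carriers Slc22a6 (20.8 and 16.6, -0.33 ± 0.40) and Slc22a8 (23.4 and 19.4, -0.27 ± 0.36) were close to background with errors larger than their differences. Slc22a13 was at 91.8 and 103.9 (0.18 ± 0.21) and Slc22a28 at 132 and 129 (-0.04 ± 0.21). The organic cation carriers Slc22a2 and Slc22a3, the anion carrier Slc22a7 and the urate carrier Slc22a12 were detected on neither array. In the run of 8 neighbouring Slc22a genes that holds Slc22a6 and Slc22a8, 3 were measured. The pseudogene Slc22a13b-ps, set apart, was at 98.1 and 95.0 (-0.05 ± 0.21), and Slc2a4rg-ps at 1209 and 1160 (-0.06 ± 0.20).

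Of the Slco carriers of organic anions, 6 of 15 were measured, with a median of 0.38, and 0 passed 2-fold. Slco2a1, which takes up prostaglandins, was at 0.56 ± 0.14, but its 3 measured probes disagreed. Signals were 977 and 1308 for the brightest (0.42 ± 0.20), 30.6 and 71.3 for the next in difference (1.22 ± 0.24) and 34.7 and 35.7 for the last (0.04 ± 0.27). The gap between the outer probes exceeds the gene's own difference, so its size is uncertain.
Slco2a1 brightest probe: gttcccggaagatcagctgtccccacaagt
Slco2a1 probe with the largest difference: gttctcgcttaagaaacaaagccatgttgt
Slco2a1 probe with the smallest difference: ttgttttgttttgtttaaagagagagagaa

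Slco3a1, a broadly expressed anion carrier, was higher by each of 4 measured probes, from 0.15 to 0.48, with 2194 and 2493 on the brightest (mean 0.32 ± 0.10). Another probe, detected in the control alone, gave 18.0 and 11.2. Slco4a1 was at 15.3 and 28.6 and at 40.5 and 46.5 (mean 0.55 ± 0.21), and Slco1a5 at 106 and 144 (0.45 ± 0.21). Slco2b1, an anion carrier of gut, liver and the blood-brain barrier, was at 29.4 and 21.1 (-0.48 ± 0.30). Slco1a1 (16.9 and 9.81) and Slco5a1 (16.7 and 3.18) were detected in the control alone, with bounds of at least 1.30-fold and 1.28-fold. Of the 3 carriers with a bound, 0 reached 2-fold, where 29.6% of all genes detected on 1 array did. In the run of 6 neighbouring Slco1 genes, 2 were measured. Slco1a4, the anion carrier known from brain endothelium, and the liver carrier Slco1b2 were not among them.

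**Figure D3:**
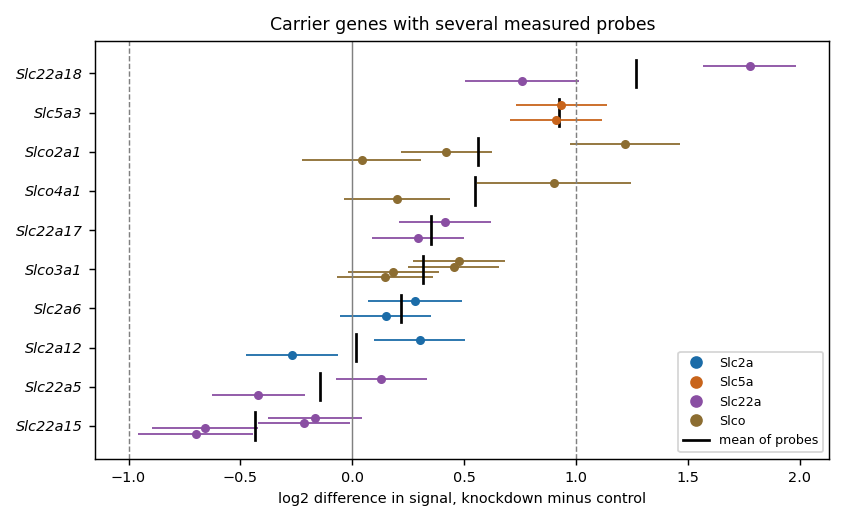
Log2 difference, knockdown minus control (x axis), of each measured probe of the 10 carriers with several measured probes. Points are probes with the scanner software's error, black bars their mean, and dashed lines mark 2-fold. The Slc5a3 probes coincide near 0.92, whereas those of Slc22a18 (0.76 and 1.78) and Slco2a1 (0.04 to 1.22) spread widely.

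The 34 carriers without a detected probe and the extra dim probes of measured genes made up 75 probes. Their signals ran from 2.40 to 12.5 on the control array and from 2.58 to 13.0 on the knockdown array. The lowest detected signal over all probes was 13.0 on the knockdown array, while on the control array the undetected carrier probes reached into the range of the dimmest detected probes. At such signals a difference was not detectable on these arrays, and absence of the transcripts is not shown.

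Promoter sequences, 250 bases before to 50 after the start, were present in the RefSeq table of build GRCm38.p6 for 64 of the 79 carriers. The palindrome TTCNNNGAA, the letters that STAT proteins bind, was found in 8 of their 71 promoters (11.3%), against 8.30% of all promoters. Of the 7 genes concerned, 4 were measured. Differences of those 4 were -0.44 (Slc22a15), -0.15 (Slc22a16), 0.45 (Slco1a5) and -0.48 (Slco2b1). They thus held both signs and 0 values past 2-fold. The windows are shown with the motif in capitals, on the strand of the gene.
Slc22a15, chr3:101924599-101924627, minus strand: cccggccctcTTCTCGGAAggctctagag
Slc22a16, chr10:40570203-40570231, plus strand: tttcctaaacTTCCTAGAAgtgttgacgc
Slco1a5, chr6:142279091-142279119, minus strand: ctggttaggtTTCCTTGAAgggcatattc
Slco2b1, chr7:99695924-99695952, minus strand: tactgagcctTTCCGGGAAtgagtgatca
Slco2b1, another start, chr7:99706811-99706839, minus strand: atcagaggaaTTCATGGAAccaaagaaac

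The promoters of Slc16a4, Slc16a14 and Slc22a18 in that table did not hold these letters in this window. The core of the interferon-stimulated response element, searched on both strands, was in 4 of the 71 promoters (5.63%) against 3.44% of all. Of those carriers 1 was measured, Slc2a12 at 0.02. The core ACGTG, which hypoxia-inducible factors and E-box proteins bind, was in 11 (15.5%) against 19.6%, again on both strands, so that a palindrome CACGTG matches on each. Its 9 measured genes held both signs. Below 0 were Slc2a1 (-0.87), Slc22a16 (-0.15), Slc22a4 (-0.15), Slc16a1 (-0.15) and Slco1c1 (-0.12). Above 0 were Slc16a3 (0.22), Slc2a10 (0.34), Slc22a17 (0.35) and Slco2a1 (0.56). The window of Slc2a1 is shown because it was the lowest carrier. The match of Slc2a1 begins 36 bases before the start.
Slc2a1, chr4:119108699-119108723, plus strand: cccgccccggACGTGctccccaggc

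**Figure D4:**
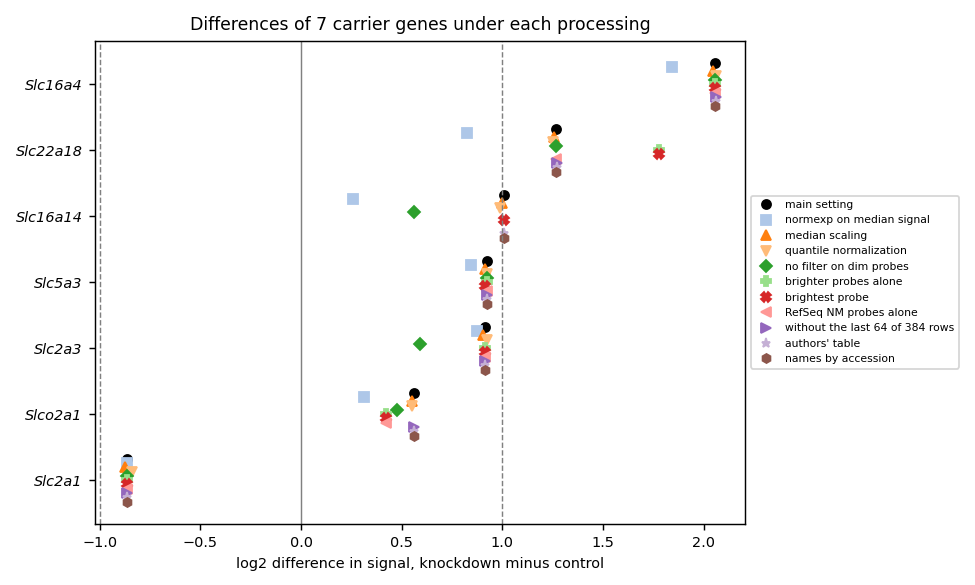
Log2 difference, knockdown minus control (x axis), of 7 carriers in the main setting and under each other processing (symbols), with 2-fold marked by dashed lines. Slc16a4 stays between 1.84 and 2.06 and Slc2a1 between -0.88 and -0.84, while Slc22a18 ranges from 0.83 to 1.78 and Slc16a14 from 0.26 to 1.01. Slc16a4 and Slc2a1 have 1 probe each, so settings that choose among probes could not spread their values.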

How the data were processed

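The authors deposited, for each spot, a background-corrected and unscaled intensity from Agilent Feature Extraction 12.1.0.3 per the file headers, with flags for spots well above background, saturated or outlying. The authors' deposited table gives log2 values. Each of its columns was log2 processed signal minus a constant (8.94 on each array), matched within 0.001 for 100% of 56294 single-spot probes. Its column medians were -3.83 and -3.83. The table's gene symbols named the probes.

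Spots with outlier flags (112 and 94) were removed and 0 carrier probes were saturated. Signals under 1 were set to 1. The main value was log2 signal minus the array's 75th percentile (493.3 and 493.7), averaged over the probes that both arrays flagged well above background (of 56594 probes, 59.5% carried that flag in the control and 58.6% in the knockdown). A gene seen on 1 array was given a bound against its own signal on the other array or that array's dimmest detected signal, whichever was greater. No test was possible with 1 array per group. The array number limits the precision. The gene computation was tested on simulated data with differences set past 2-fold and noise below the spread between probes of 1 gene. That checks the code and not the reliability of the differences reported here. Alternatives were normexp background correction, median scaling, quantile normalization, no filter on dim probes, brighter probes alone, the brightest probe, RefSeq probes alone, omission of the last 64 rows, the authors' table and names by accession. Normexp used limma 3.58.1 on median signals in place of the planned mean signals, with a constant of 50 added to each corrected signal. Such a constant shrinks the log2 differences of dim probes. Substrate groups and gene roles were assigned after the values were seen.

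Members and lists were chosen with earlier results of these data known. Genes were named if past 2-fold or given a bound of 2-fold, if among the 3 highest signals of a family, or if their probes differed by 1 or more, and the other measured carriers and partner genes are given as well. Values of 2 carriers, which are included in the counts and medians, are not reported here. Gene order came from the GRCm38.p6 table, whereas the array's build is mm9 per the file headers. Probe sequences are limited to 30 of 60 bases.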

Additional observations from a re-analysis of the deposited data

How the results depend on the processing

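The count of carriers at least 2-fold higher was 3 in the main setting, 1 with normexp (Slc16a4) and 5 with no filter on dim probes, which also gave 2 carriers at least 2-fold lower. The added carriers, Slc2a4, Slc5a2, Slc5a7, Slc22a12 and Slc22a3, were counted there through dim probes. The constant added with normexp shrinks differences of dim probes, and its part in the fewer calls was not tested. The cause of the other shifts was not tested either. Over all genes, 599 higher and 394 lower became 191 and 168 with normexp, 1279 and 999 with no filter, and 361 and 293 among brighter probes. Slc16a4 was past 2-fold under all 10 alternatives. It has 1 probe, so settings that choose among probes, rows or names could not change it beyond a small rescaling. The authors' table holds the same signals less a constant. Slc16a4 was at 2.05 with median scaling, 2.06 with quantile normalization and 1.84 with normexp. Slc22a18 was past 2-fold under 9 of the 10. Slc16a14 had no value among brighter probes, with RefSeq probes alone or without the last 64 rows, and kept 2-fold under 3 of the 7 others. Family medians moved by less than 0.31, the SD over probes of 1 gene, under all 10. Those of Slc5a and Slc16a changed sign in places, ranging from -0.09 to 0.11 and from -0.01 to 0.22. Bounds could not be computed with no filter. No paired analysis was possible because there was 1 array per group, and for the same reason none could be left out. The arrays lay on 1 slide.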

Other observations

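Genes next to the carriers at 2-fold gave the following values, chosen after the carriers' differences were seen. Beside Slc22a18, in a known imprinted cluster, Cdkn1c was at 0.53 ± 0.20 and Phlda2, read in the last 64 rows of the array alone, at 0.74 ± 0.21. Further along, Nap1l4 was at -0.09 ± 0.14 and Cars at 0.07 ± 0.12. Beside Slc16a4, Lamtor5 was at 0.20 ± 0.20 and Rbm15 at -0.32 ± 0.14, so its neighbours did not share its 4.16-fold difference. Beside Slc16a14, Fbxo36 was at 1.19 ± 0.20 and A530032D15Rik at 0.46 ± 0.27. Further along from Slc16a14, Trip12 was at 0.09 ± 0.09, with 6 probes from -0.31 to 1.01. Dner, read in the last 64 rows alone, was at 0.30 ± 0.20.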
